A study of Mus musculus with 8 samples.

Results

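The miRNAs described here are the products of the miR-486 hairpins and of the miR-144/miR-451a cluster, measured in cardiomyocytes of mice with and without pressure overload. They were chosen by name, as mmu-miR-486a-5p, mmu-miR-486a-3p, mmu-miR-486b-5p, mmu-miR-486b-3p, mmu-miR-451a, mmu-miR-144-3p and mmu-miR-144-5p, where mmu stands for mouse. All 7 names were found among the 697 mature miRNAs with counts, and 6 of the 7 had a mean above the 100 counts required for testing. miR-144-5p, with a mean of 59.5 counts over the libraries, was below that minimum.

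Small RNA was sequenced from cardiomyocytes isolated by Langendorff perfusion, an enzymatic digestion of the heart through its own vessels. The 4 sham libraries came from male mice that had the operation without the constriction, and the 4 TAC libraries from male mice with transverse aortic constriction, a narrowing of the aorta that overloads the left ventricle. The mice were operated on at 2 months of age and their hearts were taken 14 weeks later. Both groups thus had thoracic surgery, no transgene or drug is named for them, and their strain is not given in the sources used here. Each library was made from 1 mouse.

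miR-486 lies in an intron of Ank1, the gene of the membrane adaptor ankyrin 1, and is known from striated muscle, where a muscle promoter of Ank1 drives it, and from red blood cells. miR-144 and miR-451a are made from a single transcript that GATA1 activates in erythroid cells, and they are among the most abundant miRNAs of mature red cells. miR-451a is matured without Dicer, by the slicing activity of Argonaute 2, whereas miR-144 follows the usual route and leaves a guide and a passenger strand. A heart sample can hold miR-486 of the myocytes and miR-486 of trapped blood, and the miR-144/miR-451a cluster serves as the marker of red cells, so the relation between both in each library was examined.

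The mature sequences of the erythroid cluster are shown because the seed, bases 2 to 8 and here in capitals, sets which other miRNAs could act on the same targets. They were taken from RefSeq (GRCm38.p6), and 3 of the 7 members had an entry.
miR-451a: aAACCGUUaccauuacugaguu
miR-144-3p: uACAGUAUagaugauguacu
miR-144-5p: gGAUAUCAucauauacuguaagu
miR-101a-3p: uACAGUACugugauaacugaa
The 3 seeds of the cluster differed from each other, and none of the 1679 mature miRNAs in the RefSeq table carried any of them in another miRNA. miR-101a-3p, printed for comparison, shared bases 2 to 7 with miR-144-3p and differed at base 8. miR-451a lay at chr11:78073186-78073207 on the plus strand and miR-144-3p at chr11:78073047-78073066 on the same strand. Their hairpins of 72 and 66 bases were 99 bases apart, and miR-451a occupied bases 17 to 38 of its hairpin, across the loop. The Mir144 hairpin overlapped no annotated gene, and the Mir451a hairpin was overlapped only by Mir451b on the opposite strand.

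The Mir486 hairpin was annotated on chromosome 8 from 23142555 to 23142682 on the plus strand of GRCm38. Mir3107, the host of miR-486b, lay on the minus strand from 23142573 to 23142662, so that all 90 of its bases were shared with Mir486. Both were inside Ank1 and outside its exons. The 5p products of both hairpins carry the same mature sequence, and their counts differed by 0.155 to 0.346% of the miR-486a-5p count in every library. They were therefore taken as 1 observation, for which miR-486a-5p stands below. The 3p products could be told apart by count, with 7.68 to 11.4 times as many counts of miR-486a-3p as of miR-486b-3p, but how tags that fit both strands were assigned is not given in the sources used here.

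The libraries held 4005668 to 5392576 miRNA counts in sham and 5507169 to 7798943 in TAC, and no pair of libraries was a copy. Levels are given as CPM, the count scaled to a common library size by the library's miRNA total, unless stated otherwise. In a second scaling, which follows the study in taking miR-126a-3p and miR-19b-3p as references, the TAC library totals were multiplied by 0.537, and this added 0.90 to every log2 fold change. Under this reference scaling the 223 tested miRNAs had a median log2 fold change of 0.61, compared with -0.08 after TMM normalization and -0.29 by library totals, so each change is also given relative to that median. Defining miRNAs of the labelled cell type were present: miR-1a-3p, which is specific to striated muscle, was at 93974 to 192386 CPM and the cardiac miR-208a-3p at 350 to 645 CPM. Heart tissue that was not dissociated would hold them too, so these levels do not show how pure the myocytes were. Markers of other cells were present in every library. The endothelial list (2 miRNAs) summed to 49248 to 72051 CPM in sham and 29274 to 34557 CPM in TAC, the fibroblast and smooth muscle list (7) to 45793 to 53171 and 39692 to 48038 CPM, and the leukocyte and platelet list (6) to 2943 to 4932 and 2878 to 3375 CPM.

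miR-486a-5p was among the abundant miRNAs of these cells and ranked 13th of 697 by total count. It stood at 25784, 23222, 23562 and 21393 CPM in sham libraries 1 to 4, and at 35654, 27795, 26183 and 26609 CPM in TAC libraries 1 to 4. Each TAC library exceeded each sham library, and TAC library 1 lay above the other TAC libraries. The means were 23490 ± 1801 CPM in sham and 29060 ± 4448 CPM in TAC (SD, 4 mice in each group). Groups separate with TAC above were seen for 8 of the 223 tested miRNAs, which is 3.59%. The rows of miR-486a-5p and miR-486b-5p are both among them.

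The star strands of miR-486 were far less abundant. miR-486a-3p was counted at 347, 409, 493 and 448 CPM in sham and at 595, 448, 398 and 382 CPM in TAC. miR-486b-3p was counted at 45.2, 49.7, 54.0 and 39.4 CPM in sham and at 60.5, 51.2, 36.0 and 45.3 CPM in TAC. The groups overlapped for both, and TAC library 1 again had the highest level of all libraries.

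The erythroid miRNAs were lower in abundance and varied much more between mice. miR-451a was at 86.4, 257, 404 and 278 CPM in sham and at 16.5, 55.0, 162 and 145 CPM in TAC. miR-144-3p was at 327, 647, 1078 and 714 CPM in sham and at 24.3, 141, 379 and 366 CPM in TAC. The groups overlapped for both, although TAC libraries 1 and 2 lay below all sham libraries. Groups that did not overlap, with TAC below, were seen for 27.4% of tested miRNAs on this scale. Neither was called lower in the tests below that had no replicate block. In bulk RNA of this kind, the number of red cells and the amount of these miRNAs per red cell cannot be told apart. Whether other cells also made them was not tested.

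miR-144-5p, the passenger strand, had few counts. In sham it was read 20, 76, 104 and 65 times, which is 4.32, 14.1, 21.2 and 16.2 CPM. In TAC it was read 16, 33, 57 and 105 times, or 2.91, 4.23, 8.99 and 14.5 CPM. As for the other products of the cluster, sham library 1 was the lowest of the sham libraries and TAC library 1 the lowest of the TAC libraries.

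**Figure D1:**
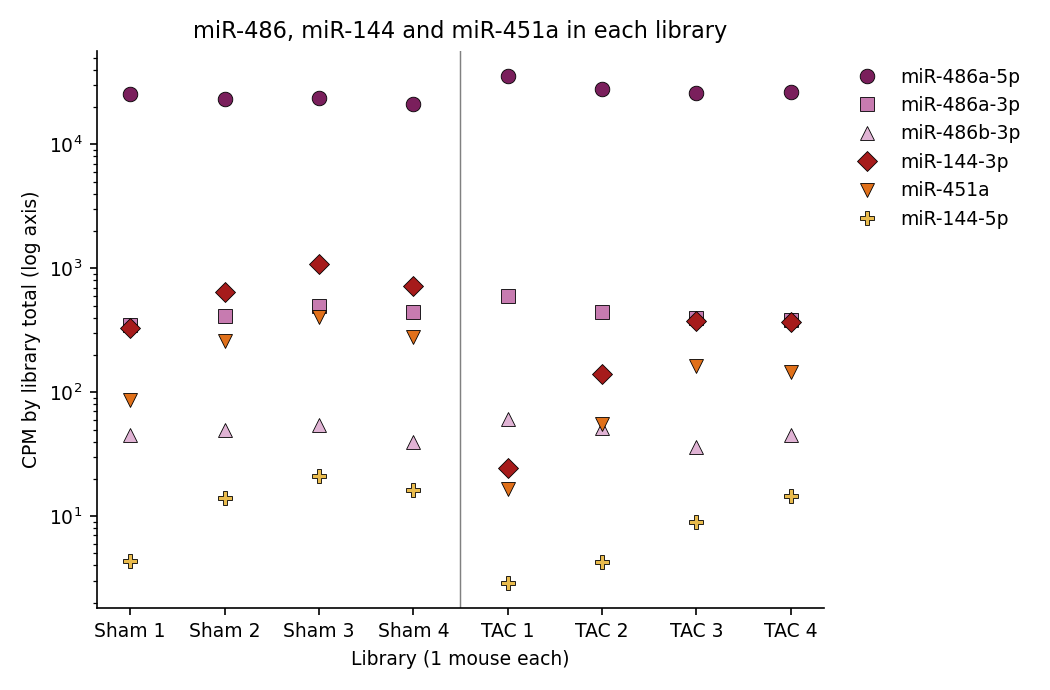
Levels of the members in each library, in CPM by library total on a log axis, with 1 column per mouse, sham to the left and TAC to the right of the line, and 1 symbol per miRNA. miR-486a-5p lies in a narrow band from 21393 to 35654 CPM, while miR-451a runs from 16.5 to 404 CPM and miR-144-3p from 24.3 to 1078 CPM.

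Ordered by mean CPM, miR-486a-5p came first and miR-144-5p last in both groups. In sham, miR-144-3p (691.4 ± 308.1 CPM, SD, n = 4) stood above miR-486a-3p (424.5 ± 62.15) and miR-451a (256.3 ± 130.4), and these neighbours overlapped in their libraries. In TAC, miR-486a-3p (455.8 ± 96.95) stood above miR-144-3p (227.7 ± 174.3) and miR-451a (94.60 ± 70.06). miR-486a-3p had a range of 382 to 595 CPM there and was above all TAC values of miR-144-3p. miR-486b-3p (48.21 ± 10.29) was not separate from miR-451a in TAC.

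Whether the members differed between TAC and sham was tested with edgeR's quasi-likelihood test across all 223 tested miRNAs with Benjamini-Hochberg adjustment. A miRNA was called when its adjusted p was below 0.05 and its level differed by more than 1.7-fold. Under the reference scaling the miR-486 products rose and the erythroid miRNAs did not pass the test. miR-486a-5p rose by a log2 fold change of 1.20 (SE 0.122, edgeR adjusted p = 6.43e-05), that is 2.30-fold, from 23490 ± 1801 to 54134 ± 8287 reference-scaled CPM. miR-486a-3p rose by 1.00 (SE 0.179, edgeR adjusted p = 0.00137) and miR-486b-3p by 0.93 (SE 0.197, edgeR adjusted p = 0.00298). These standard errors leave out the error of the scaling factor, which is a single value for all TAC libraries. With a reference factor for each library the log2 fold change of miR-486a-5p was 1.15 (edgeR adjusted p = 0.00162), and 73 of the 223 tested miRNAs were called higher. With the single factor 36.8% of all tested miRNAs were called higher. The miR-486 products, which count as 1 observation of the locus, are to be read against that share. Their groups did not overlap on the reference-scaled CPM, as was so for 54.7% of tested miRNAs with TAC above and for 0.448% with TAC below, while those of miR-451a, miR-144-3p and miR-144-5p overlapped.

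miR-451a had a log2 fold change of -0.54 (SE 0.635, edgeR adjusted p = 0.468) and miR-144-3p of -0.70 (SE 0.668, edgeR adjusted p = 0.372) under the same scaling, and neither was among the 0.897% of tested miRNAs called lower. Their standard errors were over 5 times that of miR-486a-5p, so these values do not show that the levels were alike. For miR-144-5p, fitted with no filter on counts, the log2 fold change was 0.039 (SE 0.481, edgeR adjusted p = 0.956).

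The size of the difference depended on the scaling. Outside the sequencing, the study reports quantitative PCR, with small nucleolar RNAs as controls, in which miR-486a was also higher after TAC. It further states that quantitative PCR found both of its reference miRNAs unaltered. With TMM the log2 fold change of miR-486a-5p was 0.52 (edgeR adjusted p = 0.0250), under the required fold, and by library totals it was 0.31 (edgeR adjusted p = 0.0929). An adjusted p below 0.05 with a positive fold change was reached with TMM by 4.93% of tested miRNAs, and 1.35% were called higher with the fold required. By library totals 0.448% were called higher. miR-486a-3p gave 0.31 and 0.10 and miR-486b-3p 0.25 and 0.033 in these fits, none past the test. miR-451a gave -1.25 with TMM (edgeR adjusted p = 0.201) and -1.44 by library totals (edgeR adjusted p = 0.129), and miR-144-3p gave -1.42 (edgeR adjusted p = 0.182) and -1.60 (edgeR adjusted p = 0.110). Neither was called, while 4.48% of tested miRNAs were called lower with TMM and 10.3% by library totals. miR-144-5p turned in direction, to -0.49 with TMM and -0.86 by library totals without a filter, again not past the test.

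The scalings move all fold changes by nearly the same amount, so the order of the miRNAs is nearly fixed across them. Relative to the median of all tested miRNAs, miR-486a-5p stood 0.60 higher on the log2 scale in each of the 3 scalings and ranked 20th of 223 from the top. miR-486a-3p stood 0.39 above the median. miR-144-3p ranked 4th and miR-451a 5th from the bottom in each scaling, with miR-144-3p at -1.31 and miR-451a at -1.15 relative to the median under the reference scaling. Both thus stood near the bottom of the order without passing the test in these fits, which had no replicate block.

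**Figure D2:**
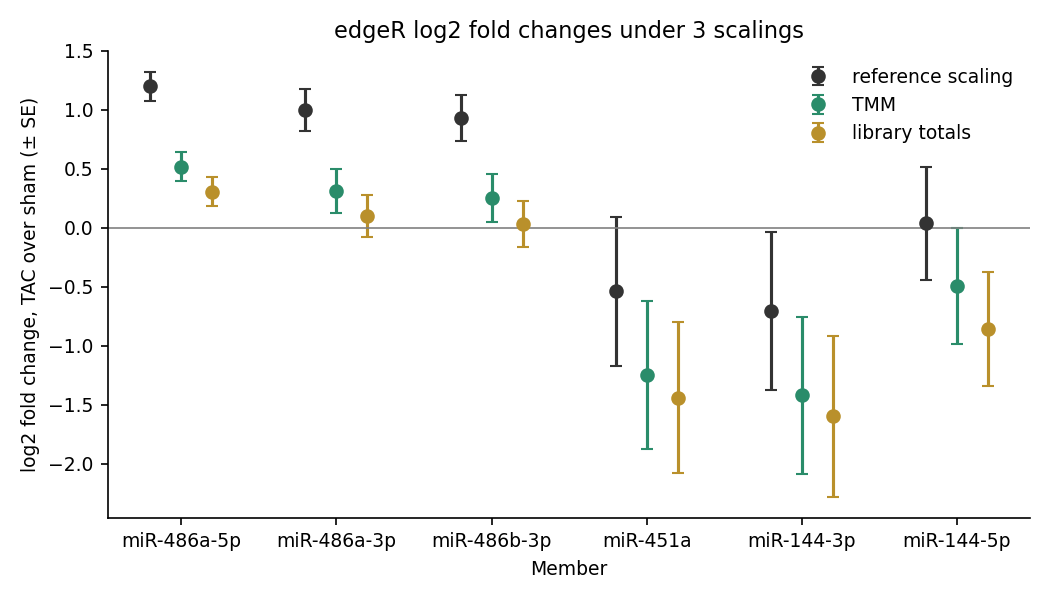
Log2 fold change of TAC over sham for the members under the reference scaling, TMM and library totals, with bars of 1 standard error either way (miR-144-5p fitted with no filter on counts). The points of the miR-486 products shift from between 0.93 and 1.20 down to between 0.033 and 0.31, and those of miR-451a and miR-144-3p lie below 0 in all 3 scalings with longer bars.

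The spread within groups differed between the members. It is given as the pooled SD of log2(CPM + 1) within groups. It was 0.166 for miR-486a-5p, 0.254 for miR-486a-3p and 0.257 for miR-486b-3p, against a median of 0.254 over the 223 tested miRNAs. miR-144-3p, with 1.39, had the largest spread of all tested miRNAs, and miR-451a, with 1.25, the next largest. miR-144-5p had 0.903. The counting error at the lowest count was 0.15 for miR-451a and 0.12 for miR-144-3p on the same scale. The highest library exceeded the lowest 24.4-fold for miR-451a, 44.3-fold for miR-144-3p and 1.67-fold for miR-486a-5p over all 8 libraries. Without TAC library 1 the spread was 0.090 for miR-486a-5p, 0.911 for miR-451a and 0.752 for miR-144-3p. Over all 8 libraries, scaled by a reference factor for each library, it was 0.309 for miR-486a-5p, 1.162 for miR-451a and 1.336 for miR-144-3p. With TMM it was 0.173, 1.239 and 1.375 in the same order. The spread of miR-486a-5p thus was wider with a reference factor for each library. The median over the tested miRNAs was taken by library totals only, so where miR-486a-5p stands under these factors is not known.

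miR-451a and miR-144-3p had the same order of levels over the libraries. Across the 8 libraries their log2 levels had a Pearson's r of 0.983 (exact permutation p = 4.96e-05) and a Spearman's rho of 1.00 (exact permutation p = 4.96e-05, the smallest the pairings can give), in the only relation tested. The pairings were permuted across both groups, so these p-values also take in a shift between groups and the shared library total. Without TAC libraries 1 and 2, the farthest from the median of miR-451a, r was 0.956 over the remaining 6. Relative to its group's mean, miR-144-3p lay on the same side as miR-451a in 8 of 8 libraries, and so did miR-144-5p.

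miR-486a-5p deviated less and mostly the other way. It lay on the same side of its group's mean as miR-451a in 2 of 8 libraries. These were sham library 3 and TAC library 2, where it deviated by 0.00757 and -0.0525 on the log2 scale. Among the libraries counted the other way, sham library 2 deviated by only -0.0134. In both groups the library with the least miR-451a, library 1, was the one with the most miR-486a-5p. The other arm of the hairpin differed: miR-486a-3p lay on the same side as miR-451a in 4 of 8 libraries, and in sham library 1 it was at the lowest of its 8 levels, 347 CPM, while in TAC library 1 it was at the highest, 595 CPM. In sham library 3, with the most miR-451a of all (404 CPM), miR-486a-5p was at 23562 CPM, close to the sham mean of 23490. CPM values of 1 library share its total, and no correlation between both was computed because the groups differ in level.

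**Figure D3:**
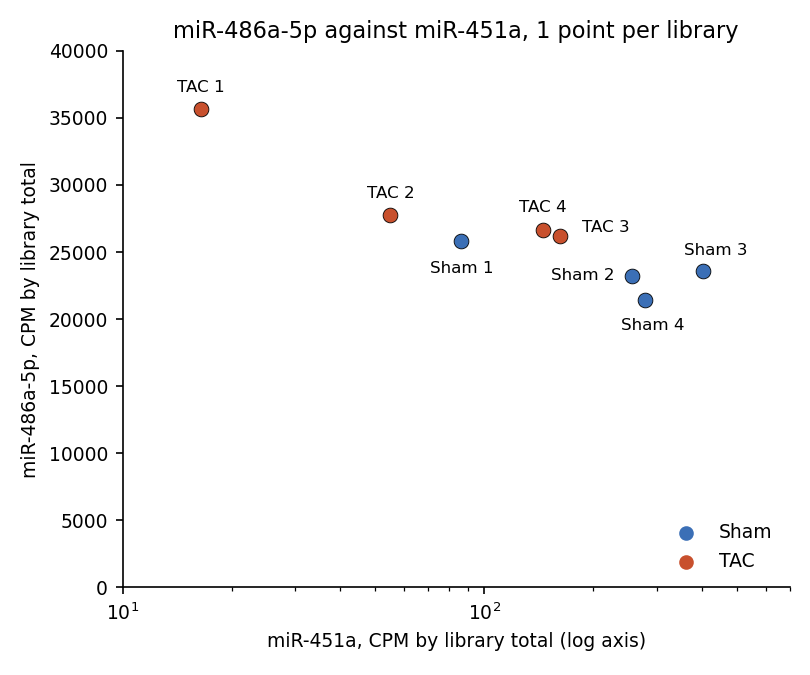
miR-486a-5p (CPM, linear axis from 0) against miR-451a (CPM, log axis), with 1 labelled point per library. miR-451a spans 16.5 to 404 CPM, and miR-486a-5p is at its highest, 35654 CPM, in TAC library 1, where miR-451a is at its lowest.

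**Figure D4:**
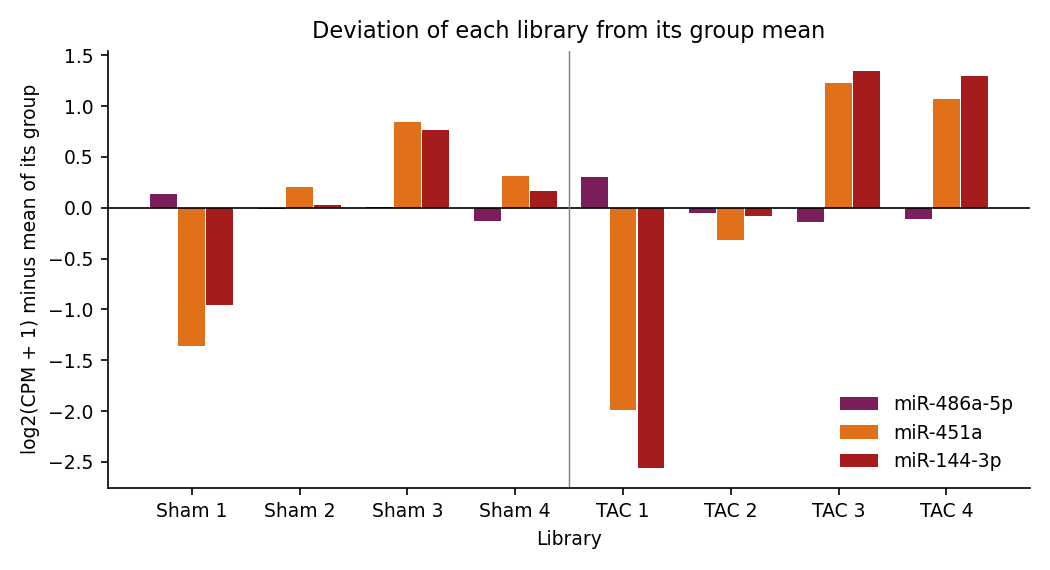
Deviation of miR-486a-5p, miR-451a and miR-144-3p from the mean of their group in each library, on the log2(CPM + 1) scale, as bars from 0. The bars of miR-451a and miR-144-3p point the same way in 8 of 8 libraries, and those of miR-486a-5p are shorter and share the direction of miR-451a in 2 of 8.

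The ratio of 2 miRNAs within a library does not depend on scaling, and 6 such ratios were compared between groups with a two-sided exact permutation test over 70 arrangements, whose smallest p is 0.0286, and adjusted over the 6. There were 298, 90.2, 58.4 and 77.1 counts of miR-486a-5p for each count of miR-451a in sham, and 2158, 505, 162 and 183 in TAC. The ratio thus was not constant within a group, and sham library 1 overlapped with TAC libraries 3 and 4. The mean log2 ratio was 6.71 ± 1.04 in sham and 8.73 ± 1.73 in TAC (SD, 4 mice in each group), a difference of 2.02 with a 95% interval of -0.88 to 5.20 (exact permutation p = 0.0857, adjusted 0.129). Without TAC library 1 the difference was 1.23.

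The ratio of miR-486a-5p to the muscle miRNAs spanned a smaller range. The muscle list summed 7 miRNAs of heart and skeletal muscle, mostly miR-1a-3p and miR-133a-3p, and was at 164325 to 201156 CPM in sham and at 198656 to 249141 CPM in TAC. For each count of this list there were 0.128, 0.134, 0.143 and 0.116 counts of miR-486a-5p in sham, and 0.179, 0.123, 0.114 and 0.107 in TAC. TAC library 1 was above all sham libraries and TAC libraries 3 and 4 were below them. The log2 difference of TAC from sham was -0.022 (95% interval -0.42 to 0.63, exact permutation p = 0.914, adjusted 0.914). Its sign depended on the list: without miR-1a-3p it was 0.37, and with miR-133a-3p alone 0.38 (exact permutation p = 0.0571 for each).

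For miR-451a the ratio to the muscle list ran from 4.30e-04 to 0.00246 in sham and from 8.32e-05 to 7.04e-04 in TAC. The log2 difference was -2.04 (95% interval -4.88 to 0.71, exact permutation p = 0.0857, adjusted 0.129). The SD of the log2 ratio to the muscle list was 1.07 in sham and 1.41 in TAC for miR-451a, and 0.130 and 0.335 for miR-486a-5p. The SD of the log2 level alone was 0.951 and 1.49 for miR-451a, and 0.110 and 0.208 for miR-486a-5p. Division by the muscle list thus did not narrow the spread of miR-486a-5p, and each ratio with miR-451a carries the wide spread of miR-451a. The smaller range therefore does not show that miR-486a-5p followed the muscle miRNAs.

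**Figure D5:**
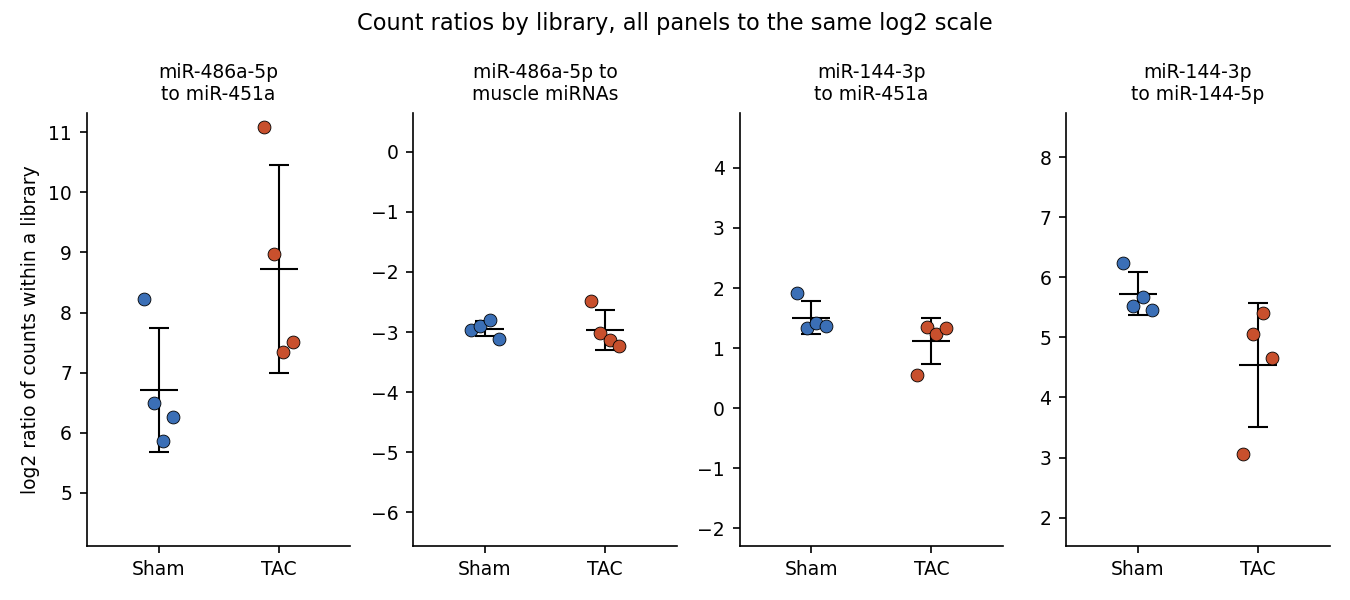
Log2 count ratios within each library for 4 of the 6 ratios, sham and TAC side by side, 1 point per mouse, with the mean and SD of each group and the same log2 scale in every panel. The ratio of miR-486a-5p to miR-451a spreads from 58.4 to 2158 counts per count, and that of miR-486a-5p to the muscle list from 0.107 to 0.179.

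How much miR-486a-5p would accompany miR-451a at a fixed ratio was computed for each library. The lowest ratio, 58.4 in sham library 3, was taken as if all of its miR-486a-5p went with miR-451a and as if that ratio held in every library, which was not tested. Under this arithmetic, miR-451a would be accompanied by 100% of miR-486a-5p in sham library 3 by definition, and by 75.7, 64.7 and 19.6% in sham libraries 4, 2 and 1. In TAC libraries 1 to 4 the shares would be 2.70, 11.6, 36.0 and 31.9%. The ratio of 58.4 was taken from the same libraries, so these shares restate the ratios above and do not estimate a share from blood. The share of miR-486a-5p that came from myocytes and the share from blood were not measured.

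The arms of each hairpin were compared next. There were 74.4, 56.7, 47.8 and 47.7 counts of miR-486a-5p per count of miR-486a-3p in sham, and 59.9, 62.1, 65.7 and 69.6 in TAC. All TAC values lay within the sham range, and the log2 difference was 0.21 (exact permutation p = 0.257, adjusted 0.309). This rested on sham library 1, without which every TAC library was above every sham library and the difference was 0.345 (exact permutation p = 0.0286, unadjusted).

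There were 75.7, 45.9, 50.9 and 44.0 counts of miR-144-3p per count of miR-144-5p in sham, and 8.37, 33.3, 42.2 and 25.2 in TAC. Each TAC library was below each sham library, with a log2 difference of -1.18 (95% interval -3.17 to -0.06, exact permutation p = 0.0286, the smallest possible, adjusted 0.129). It did not pass after adjustment, and without TAC library 1, where miR-144-5p was read 16 times, the difference was -0.69. The counting error of miR-144-5p at its lowest count was 0.36 on the log2 scale, and the SD of the log2 ratio was 0.357 in sham and 1.03 in TAC.

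miR-144-3p, the guide strand, outnumbered miR-451a 3.78, 2.51, 2.67 and 2.57 to 1 in sham and 1.47, 2.56, 2.35 and 2.52 to 1 in TAC. In 6 of the 8 libraries the ratio was between 2.35 and 2.67, and library 1 of each group stood apart, above the others in sham and below them in TAC. The log2 difference between groups was -0.39 (95% interval -1.36 to 0.02, exact permutation p = 0.0857, adjusted 0.129).

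The 6 miRNAs of the leukocyte and platelet list did not move one way in TAC library 1. In this library 3 of the 6 were the lowest of the TAC libraries (miR-142a-5p, miR-142a-3p and miR-223-3p) and 2 were the highest (miR-150-5p and miR-155-5p). miR-142a-5p, of the hematopoietic lineage, was at 148 CPM there, against 339 to 522 CPM in the other TAC libraries and 560 to 870 CPM in sham. The myeloid miR-223-3p was at 5.99 CPM, against 15.4 to 24.3 CPM and 21.7 to 47.1 CPM. The lymphoid miR-150-5p was at 857 CPM, against 566 to 779 CPM in the other TAC libraries, and miR-155-5p at 123 CPM, against 114 to 117 CPM. The summed leukocyte and platelet list was at 3096 CPM in TAC library 1, within the range of the other TAC libraries. Sham library 1 had the lowest endothelial miR-126a-3p of the sham libraries, at 25759 against 36421 to 50698 CPM, as well as the lowest miR-451a. The other endothelial miRNA, miR-126a-5p, was at its highest there, at 23488 against 16874 to 22419 CPM. The part of other cells in the difference between libraries was not tested.

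Other miRNAs abundant in red cells, but made by many cell types, were examined as a list of 5 (miR-16-5p, miR-92a-3p, miR-25-3p, miR-185-5p and miR-106b-5p). They summed to 4931 to 6015 CPM in sham and 3827 to 4285 CPM in TAC, with TAC library 1 at 4244 CPM. The 5 did not move one way in TAC library 1. Of the TAC libraries it was the lowest for 2 of them (miR-92a-3p at 863 CPM and miR-106b-5p at 13.4 CPM). It was the highest for 1 (miR-185-5p, at 1415 CPM), which raised the sum. None of the 5 was called in either direction under the reference scaling, and their median log2 fold change was 0.40, compared with 0.61 over all tested miRNAs. By library totals it was -0.49 against -0.29. Where 36.8% of all tested miRNAs were called higher under the reference scaling, 5 of the 7 muscle miRNAs were called higher and none lower, with a median of 0.93, and by library totals their median was 0.03 with no call. Of the leukocyte and platelet list 1 of 5 tested was called higher (median 0.33), of the fibroblast and smooth muscle list 2 of 7 (median 0.60), and of the endothelial list, which holds a reference miRNA, none of 2 (median -0.01), with no member called lower. The endothelial list depended on the scaling: 1 of 2 was called lower with TMM and 2 of 2 by library totals (median -0.91). By library totals the medians of the leukocyte and platelet list (-0.57) and the fibroblast and smooth muscle list (-0.30) came with no call.

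The tested miRNAs whose log2 levels over the 8 libraries were most like those of miR-486a-5p were miR-24-3p (Pearson's r 0.866), miR-28a-5p (0.853), let-7c-5p (0.845), miR-98-5p (0.840) and miR-1983 (0.807). Those most like miR-451a outside its own cluster were miR-142a-5p (0.928), miR-26a-5p (0.857), miR-434-3p (0.850), miR-872-3p (0.845) and miR-15b-5p (0.843). No miRNA was in both lists. These values describe 8 libraries that share the difference between groups and the library total, and no test was made of them.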

How the data were processed

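The authors counted cleaned small RNA tags on mature mouse miRNAs and deposited these counts, without normalization, in 1 table per library. The submitters' processing notes name mm10 and StringTie 1.3.1. The aligner and the handling of tags that fit several miRNAs are not given in the sources used here. Groups came from the sample labels. The members and lists were chosen with earlier results of these data known.

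TAC and sham were compared with edgeR 4.0.16 (R 4.3.3; glmQLFit, glmQLFTest, group as the only term) on 223 miRNAs whose mean exceeded 100 counts, with Benjamini-Hochberg adjustment and a fold threshold of 1.7. TAC library sizes were multiplied by 0.537: the mean CPM in TAC was divided by that in sham for the references miR-19b-3p and miR-126a-3p, and both ratios were averaged geometrically. The total counts of 4005668 to 7798943 per library leave the rarest member, miR-144-5p, at 16 to 105 counts. Ratios of raw counts were compared by exact permutation, with intervals from inverting the test. Spread and likeness used log2(CPM + 1) by library totals. Alternatives were TMM, library totals, each reference alone or per library, DESeq2 1.42.0, other filters, no fold threshold, the replicate number as a block and each library left out. The miRNAs named were the members, both references, marker lists by count, with single values where a member is set against them, and the 5 most like miR-486a-5p and miR-451a. miR-101a-3p was added for its seed, and the single markers given for TAC and sham library 1 were chosen after their values were seen.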

Additional observations from a re-analysis of the deposited data

Results flagged for a closer look

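Single libraries that stood apart from the other 3 of their group were looked for with Dixon's ratio, the gap to the nearest library over the range of the group, set against its 95% critical value for 4 samples. Of 24 groups of values, 3 were above it, and chance places about 5% of groups there. The log2 count ratio of miR-144-3p to miR-451a gave 0.852 in sham, where library 1 had a count ratio of 3.78 and the others 2.51 to 2.67. The same log2 ratio gave 0.843 in TAC, where library 1 had 1.47 and the others 2.35 to 2.56. Without the log2 scale these were 0.877 in sham and 0.804 in TAC, the latter under the critical value. The miR-486a-5p level gave 0.830 in TAC, where library 1 had 35654 CPM and the others 26183 to 27795 CPM. On the log2 scale it was 0.807, under the critical value.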

How the results depend on the processing

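The number of miRNAs called higher, 82, was 3 with TMM, 1 by library totals, 5 with DESeq2's size factors, 127 without a filter, 142 without a fold threshold and 1 to 106 with 1 library left out (1 to 4 of these with TMM). The number called lower, 2, was 10 with TMM, 23 by library totals, 9 with DESeq2's size factors, 1 with miR-19b-3p alone as reference and 1 to 9 with 1 library left out (4, 5, 7, 8 or 9 with TMM). The miR-486a-5p log2 fold change was 0.52 with TMM, 0.31 by library totals, 0.56 with DESeq2's size factors and 0.40 (without TAC 1, TMM) to 1.37 (without sham 1, reference scaling) with 1 library left out. That of miR-451a was -1.61 to -0.19 and that of miR-144-3p -1.75 to -0.33 with 1 library left out, the values nearest 0 without TAC library 1. miR-144-5p reversed to -0.49 (TMM) and -0.86 (library totals), both added after the data were seen.

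Of the log2 ratios, miR-486a-5p to the muscle list was -0.022 and reversed to 0.37 without miR-1a-3p and 0.38 with miR-133a-3p alone, and ranged from -0.18 to 0.065 with 1 library left out. With 1 library left out, miR-486a-5p to miR-451a ranged from 1.23 (without TAC 1) to 2.52 (without sham 1), miR-486a-5p to miR-486a-3p from 0.13 to 0.345 (without sham 1, exact permutation p = 0.0286), miR-144-3p to miR-451a from -0.47 to -0.20, miR-451a to the muscle list from -2.55 to -1.42, and miR-144-3p to miR-144-5p from -1.46 to -0.69.

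The study's methods speak of pairs of sham and TAC mice without saying what joined them, and the labels share replicate numbers without saying that a number marks such a pair. Same-numbered libraries correlated in their deviations from the group means by 0.17, -0.37, 0.31 and -0.22 over the tested miRNAs. These correlations cannot settle whether a number marks a pair, and the numbers were used as pairs only as an alternative. For miR-451a the log2 deviations in libraries 1 to 4 were -1.36, 0.202, 0.849 and 0.311 in sham. In TAC they were -1.99, -0.312, 1.23 and 1.07, of the same sign as in sham under numbers 1, 3 and 4. With the replicate block under the reference scaling, miR-451a passed the test at -0.81 (edgeR adjusted p = 0.0436). miR-144-3p, at -1.16 (edgeR adjusted p = 0.0559), did not. With the block and TMM, miR-451a passed at -1.49 (edgeR adjusted p = 0.00976) and miR-144-3p at -1.85 (edgeR adjusted p = 0.0276). Of the 223 tested miRNAs, the block called 76 higher and 3 lower under the reference scaling, and 1 higher and 8 lower with TMM. Over pairs, miR-144-3p to miR-144-5p stayed at -1.18 (exact sign flip p = 0.125, the smallest possible). The causes were not tested. Depth limits miR-144-5p most, at 16 to 105 counts.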
